A study of Mus musculus with 4 samples.

Results

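Distal open chromatin regions shared by all libraries were examined by ATAC-seq in RAW264.7, a macrophage line of mouse origin and wild-type genotype. In this assay a transposase cuts accessible DNA. Every culture received 25 ug/mL DIL-oxLDL, an oxidized lipoprotein carrying a fluorescent dye, for 24 h. Esculetin, a coumarin found in plants, was given at 40 ug/mL to the esculetin group and at 0 ug/mL, as DMSO alone, to the control group, with 2 libraries in each. All results therefore concern lipoprotein-loaded cells of a single established line.

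The members were chosen by the peak calls themselves. The peaks of the 4 lists on the autosomes and chromosome X (build mm10) were merged wherever they shared at least 1 bp, which gave 35988 merged regions. Of these, 6174 held a peak in every library, and 788 of the 6174 (12.8%) had their centre more than 3 kb from every annotated gene start. These 788 are called distal regions here. The comparison set was the 5202 shared regions whose centre lay within 1 kb of a start, called promoter regions, and the remaining 184 lay in between. In total 19169 distal regions were found in at least 1 library, so the members were 4.11% of them.

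Open regions away from gene starts include enhancers, which are bound by transcription factors and act on promoters over a distance, and insulators, which bind CTCF. In macrophages, enhancers are set up by lineage factors such as PU.1 and C/EBP proteins, and they differ between cell types far more than promoters do. Regions of repeated sequence can also appear as strong peaks in ATAC-seq when the reference genome holds fewer copies than the cell. No sequence of the members is printed, because sequence of the files' build at these positions was not used here.

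The share of distal regions fell with the number of libraries in which a region was called. Distal regions made up 67.1% of regions called in 1 library, 58.7% in 2, 32.2% in 3 and 12.8% in all 4. Membership was limited by the shorter lists. The 788 members were 9.73% of the distal regions of control replicate 1 and 5.86% of those of control replicate 2, but 41.0% and 20.4% of those of esculetin replicates 1 and 2. Those libraries held 8100, 13440, 1923 and 3855 distal regions. The lists had 19595, 27833, 8677 and 12792 peaks, and the genome-wide background coverage solved from them, which follows read depth, was 6.51, 4.08, 4.97 and 4.10. Without esculetin replicate 1, the shortest list, 1509 distal regions would have been shared by the remaining 3 libraries.

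The members divided evenly between genes and the space between them. Of the 788, 391 (49.6%, exact 95% interval 46.1 to 53.2) had their centre inside a gene and 397 were intergenic. The interval covers counting error only. Protein-coding genes held 326 members (41.4%), 49 lay only in long non-coding RNA genes, 12 only in pseudogenes and 4 in other genes. The centre was 3 to 10 kb from the nearest start in 298 members, 10 to 50 kb in 394, 50 to 100 kb in 62 and further in 34. The median distance was 14072.5 bp to any start and 30257 bp to the nearest protein-coding start. Divided into 5 equal stretches from its start to its end, the protein-coding host genes held 59, 84, 60, 54 and 68 members. A limit of 5 kb in place of 3 kb would have kept 680 members.

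Close to that limit, the nearest members were a region 3023 bp from the start of Ifna13, an interferon alpha gene, and one 3025 bp from the start of Spsb2. A region inside the pseudogene Gm18342, at chr1:85075048-85075348, also lay 3025 bp from a start. The nearest shared regions that were left out lay 2983 bp from a start of Slc2a9, a urate transporter gene, 2964 bp from that of Prrt1 and 2953 bp from that of Mir21a, the miR-21 gene within Vmp1. The fold enrichments of the Ifna13 region were 4.40 and 6.89 in control and 6.37 and 9.80 in esculetin libraries. Those of the Prrt1 region were 4.31 and 4.62 in control and 3.69 and 4.26 in esculetin libraries, and those of the Mir21a region 3.97 and 3.40 in control and 4.69 and 5.36 in esculetin libraries.

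Fold enrichment is the coverage at a peak's summit over its local background, as deposited, and it was read from the highest peak of each library in a region. Over the members, the controls had median folds of 4.82 and 5.56 (replicates 1 and 2) and the esculetin libraries of 4.49 and 5.34. In promoter regions it was 5.02, 6.07, 5.09 and 6.27. The members inside genes and the intergenic members had similar medians, 4.88 against 4.79 in control replicate 1 and 5.47 against 5.11 in esculetin replicate 2. The folds of single members ranged from 1.42 to 27.8.

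**Figure D1:**
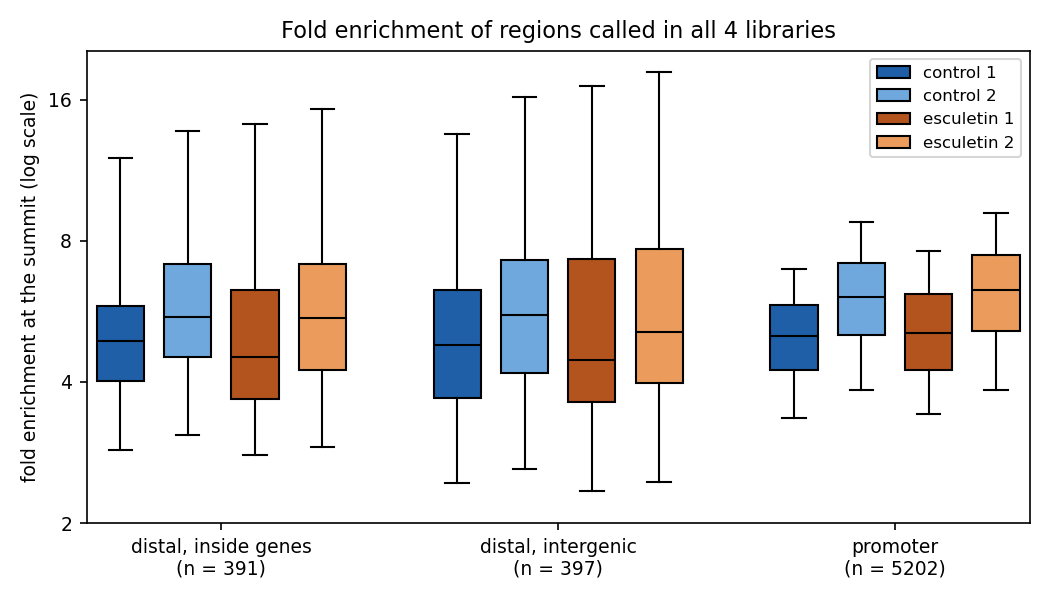
Fold enrichment at the summit (log scale) in each library for members inside genes, intergenic members and promoter regions called in all 4 libraries. Boxes give the quartiles, the line the median and the whiskers the 5th to 95th percentile over regions. The medians lie close together, and the whiskers of both distal classes reach higher and lower than those of the promoter regions.

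The strongest shared regions were mostly distal. When the 6174 shared regions were ranked by their lowest rank position over the 4 libraries, distal regions were 9 of the first 10, 45 of the first 50, 87 of the first 100, 105 of the first 200 and 129 of the first 500. A fold of at least 10 in every library was reached by 64 distal regions and by 2 promoter regions. The highest such value of any promoter region was 10.8. Of the 64 strong members 30 lay inside genes, and the median distance was 64340.5 bp to the nearest protein-coding start, with 6 of them within 10 kb of one. Their summits were sharply placed. The summit positions of the 4 libraries spread over a median of 27.5 bp, and over at most 50 bp in 82.8% of the 64, against 85 bp and 30.5% in the other 724 members. The SD of log2 fold over the 4 libraries was also lower, with a median of 0.157 against 0.229.

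A fold of at least 20 in all libraries, used here as the mark of a possible mapping artefact, was met by 6 members and by 0 promoter regions. The strongest was chr12:3109772-3110211, near the first mapped bases of chromosome 12, with folds of 25.2 and 27.8 in control and 25.7 and 27.3 in esculetin libraries. A region inside Chl1, a neural cell adhesion gene, at chr6:103648952-103649396 had 24.9 and 25.7 in control and 26.6 and 26.9 in esculetin libraries. Intergenic regions at chr12:97061353-97061871, chr6:9889858-9890245 and chr5:60042668-60043167 lay 1197847, 940032 and 1765926 bp from the nearest protein-coding start. The sixth, inside Kctd16, which encodes an auxiliary subunit of the GABA-B receptor, at chr18:40307955-40308482, was just over the limit with 20.1 and 20.5 in control and 21.4 and 21.9 in esculetin libraries. Just under it, a region 12985 bp from the start of Abcb11, the bile salt export pump gene, had 18.0 and 24.7 in control and 18.1 and 18.7 in esculetin libraries. After each library was centred on its median over all shared regions, control and esculetin values overlapped in all 6, and the limma log2 differences lay between -0.10 and 0.07.

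Below these, the leading members inside genes were found in genes of varied function. The region in Cdk8, the kinase of the Mediator complex, at chr5:146260894-146261442 had folds of 16.2 and 20.6 in control and 20.03 and 21.4 in esculetin libraries. That in Zc3h7a, a zinc finger gene, at chr16:11143813-11144405 had 17.5 and 18.1 in control and 19.3 and 21.2 in esculetin libraries. That in Gphn, which encodes the synaptic scaffold gephyrin, at chr12:78350781-78351263 had 16.7 and 18.2 in control and 18.95 and 18.3 in esculetin libraries. None of these genes was in the macrophage lists described below. The others chosen by the same ranking were in Fbxw4, in the non-coding gene Gm36684 and in Pcnx2, with lowest folds of 14.5, 16.9 and 13.3.

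The leading intergenic members were 23032 to 99896 bp from the nearest coding start. A region near Wls, which encodes the carrier of Wnt proteins, at chr3:159939331-159939762 had folds of 17.7 and 20.9 in control and 22.2 and 24.5 in esculetin libraries. One near Pak3, a Rac-activated kinase gene, at chrX:143482911-143483204 had 15.5 and 19.7 in control and 21.6 and 24.1 in esculetin libraries. In both, each esculetin value was above each control value as deposited, and the adjusted p (limma) was 0.61 for the Wls region and 0.44 for the Pak3 region. The others were near Tmem196, Fam107a, Fam171a1 and Dpy19l1, with lowest folds of 16.3, 17.2, 16.3 and 14.5.

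Some members lay over a high local background. The local background of each summit was solved from its fold and p-value and divided by the genome-wide level of the library. It was at least 2 times that level in all 4 libraries in 114 of the 788 members (14.5%, exact 95% interval 12.1 to 17.1), and in 75 of the 5202 promoter regions (1.44%, 1.14 to 1.80). The share was 19.6% among intergenic members and 9.21% among members inside genes. At 10 times the genome-wide level, 24 members and 3 promoter regions remained. The median fold of the 114 was 3.00, 3.21, 3.13 and 3.24 in the order of libraries used above, and they made up 64 of the 110 members with a lowest fold under 3. Strong members were among them too, with 9 of the 64 whose fold was at least 10 in every library, against 105 of the other 724, and 1 of the 6 with a fold of at least 20, the region at chr12:97061353-97061871. The leading regions in Cdk8 and Zc3h7a were also among the 114.

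**Figure D2:**
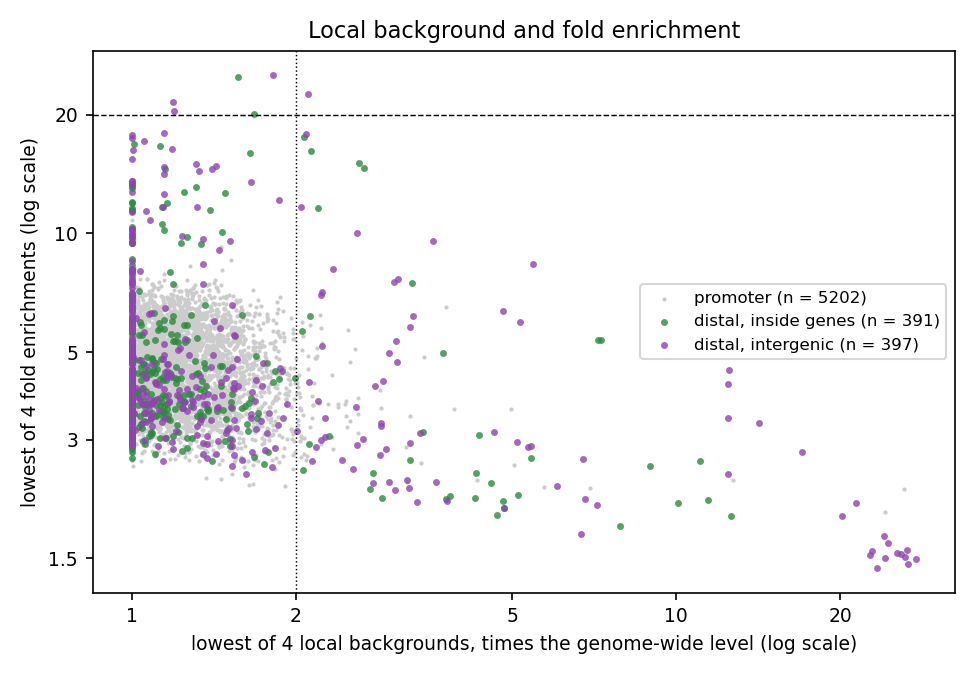
Lowest of the 4 fold enrichments against the lowest of the 4 local backgrounds in each region, both on log scales, with 1 point per region. The dotted line marks a background of 2 times the genome-wide level and the dashed line a fold of 20; members extend to high fold at low background and to low fold at high background, while promoter regions stay mostly between.

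The members with high background were clustered. Joining members at most 10 kb apart gave 40 clusters with 110 members (14.0%), and 46 of the 50 members in the 10 clusters of 3 or more had a high background. The largest, with 15 members, covered chr9:3000001-3035429, the first mapped bases of chromosome 9. Its median background was 24.2 and 29.7 times the genome-wide level in control and 41.2 and 49.1 times in esculetin libraries, with median folds of 1.74 and 1.89 in control and 1.55 and 1.58 in esculetin libraries. No other cluster of 3 or more had a higher background or a lower median fold.

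Another 6 lay at chr11:3126986-3146535 in Sfi1, a centrosomal protein gene, and the neighbouring pseudogene Pisd-ps1, and Sfi1 held 8 members in all, more than any other gene. Clusters of 4 lay at chr2:98662197-98667363, with a background of 12.4 to 21.1 times the genome-wide level, in Tmem267 at chr13:119596425-119602462, and at chrX:169989308-170005843 with 1 member in Mid1 and 3 nearest to Erdr1, close to the end of the X. The other clusters of 4 were at chr6:47763131-47778677 and, at Gm40034, chr2:181917329-181931763. The Gm40034 cluster had median folds of 6.30 and 7.37 in control and 6.64 and 6.36 in esculetin libraries. Counting all members within 200 kb of position 3 Mb, where the assembled sequence of mouse chromosomes starts after the centromere, there were 40 on 9 chromosomes, against 2 promoter regions. The leading intergenic region near Fam171a1 was among the 40. The one cluster of 3 with no high background was at chr2:22739486-22745070 near Apbb1ip, which encodes the Rap1 effector RIAM of leukocytes. Its median folds were 5.75 and 6.05 in control and 7.92 and 7.31 in esculetin libraries.

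The local background itself was higher with esculetin in many of the 114. Both esculetin values exceeded both control values in 59 of them and fell below both in 11. Among all 6174 shared regions this was so in 1698 (27.5%) and 1619 (26.2%). The 114 were chosen by their background and are not independent cases, since 46 of them lay in clusters of 3 or more. The median over the 114 was 3.78 ± 0.309 times the genome-wide level in control and 4.73 ± 0.425 in esculetin libraries (mean ± SD, n = 2). By an exact two-sided permutation test of the 4 libraries p was 0.33, the smallest that 2 against 2 libraries can give.

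The order of the regions by fold was kept between libraries, more closely within a group than across groups. Across the 788 members Spearman's rho was 0.832 between the control libraries, 0.823 between the esculetin libraries and 0.702 to 0.769 for the 4 pairs across groups. In promoter regions the values were 0.642, 0.622 and 0.440 to 0.559. These are descriptions across regions of the same 4 libraries, and regions are not independent replicates. The 114 members with a high background had 0.931 to 0.962 over all pairs, and the other 674 had 0.764 and 0.762 within groups and 0.594 to 0.682 across them.

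Whether esculetin altered the members was then asked, with labels of separate samples as the only sign that the replicates were separate cultures, so the p-values measure only the spread between these samples, which may be technical. The median fold of the members relative to that of promoter regions was lower with esculetin. On the log2 scale this ratio was -0.06 and -0.13 in control and -0.18 and -0.23 in esculetin libraries, a difference of -0.11 (exact two-sided permutation test, p = 0.33, the smallest possible). The groups did not overlap. The difference was -0.014 when summit coverage over the genome-wide background replaced the fold, and -0.053 with peaks of −log10 q of at least 5. The peaks in the members were also narrower, with median widths of 424 and 415 bp in control and 358.5 and 401 bp in esculetin libraries (difference -39.75 bp, exact permutation p = 0.33), a difference of -18.5 bp without esculetin replicate 1 and -61 bp without esculetin replicate 2. Promoter peaks had 505 and 520 bp in control and 454 and 508 bp in esculetin libraries. Both esculetin lists were shorter than both control lists, and the part of list length was not tested.

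Region by region, log2 fold was centred on each library's median over all shared regions and tested with limma over all 6174, with Benjamini-Hochberg adjustment. At an adjusted p under 0.05, 5 of the 788 members rose and 4 fell. Over all shared regions 0.211% rose and 0.178% fell. At an unadjusted p under 0.05 there were 77 higher and 80 lower members, 19.9% of them, against 13.9% of all shared regions. Of the 114 members with a high background 3 met that level, and of the other 674 members 154 (22.8%). On the centred scale, both esculetin values were above both control values in 181 members (23.0%; 24.7% of all shared regions) and below them in 199 (25.3%; 20.4% of all shared regions). The counts of adjusted calls were not stable. They were 0 when any 1 library was left out, with 75 to 162 members at an unadjusted p under 0.05, and 0 with quantile normalization, and 1 without the regions of high background, Chd9. They rose to 74 (39 higher, 35 lower) for summit coverage over the genome-wide background, where 285 of all 6174 shared regions were called. With peaks of −log10 q of at least 5 they were 13 of 588 (12 higher, 1 lower), and 54 of 5324 shared regions were called.

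The direction of the difference went with the strength of the region. Among the 344 members with a mean fold of 4 to 5.66, 41 were higher and 124 lower in both esculetin libraries than in both control libraries, with a median log2 difference of -0.11, while of the 2499 promoter regions of that strength 559 were higher and 551 lower. Among the 171 members below that range 25 were higher and 43 lower, against 63 and 56 of 317 promoter regions. Among the 142 with a mean fold of 5.66 to 8, 45 were higher and 27 lower. Promoter regions of that strength leaned the same way, with 653 of 2276 higher and 405 lower. Among the 56 with a mean fold of 8 to 11.3, 28 were higher and 3 lower (median 0.19), and among the 75 above that, 42 were higher and 2 lower (median 0.21). In promoter regions of 8 to 11.3 fold, 31 of 107 were higher and 9 lower (median 0.06), and above that there were only 3 promoter regions. The rise in the 75 strongest members was larger in esculetin replicate 1, at 0.29 and 0.32 above control replicates 1 and 2, than in esculetin replicate 2, at 0.06 and 0.15. Of the 75, 68 and 71 were higher in esculetin replicate 1 than in control replicates 1 and 2, and 46 and 56 were higher in esculetin replicate 2. Fold depends on depth, and a member had to be called in the shorter esculetin lists too. The part of either was not tested.

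**Figure D3:**
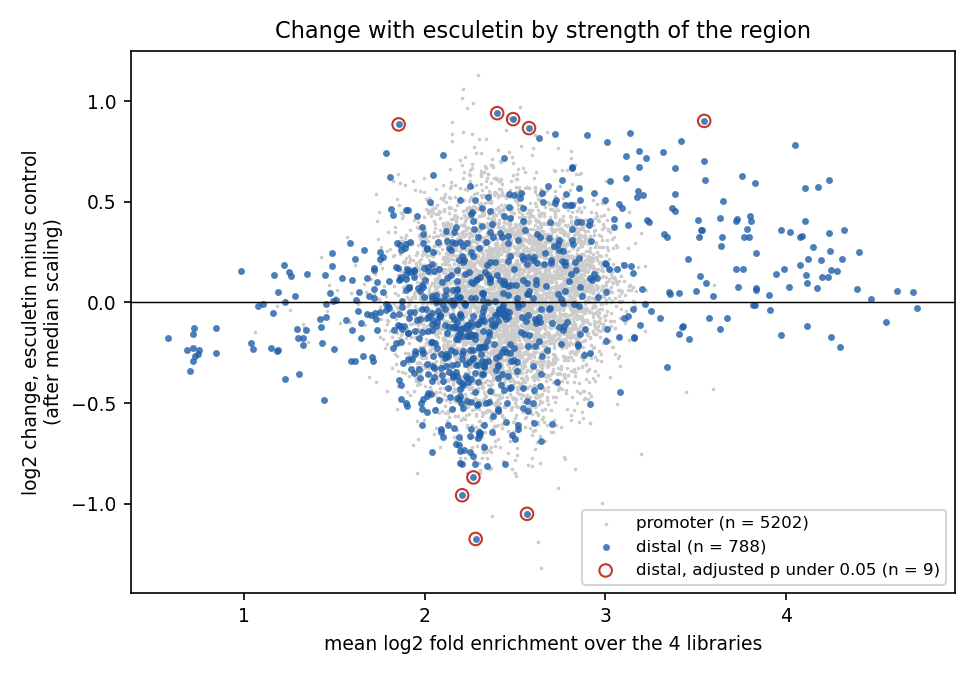
Log2 difference in fold enrichment, esculetin minus control, after centring each library on its median, against the mean log2 fold of the region, with 1 point per region and the 9 called members circled. Strong members lie mostly above 0 and those at 2 to 2.5 on the horizontal axis mostly below it.

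The 5 members that rose gained close to 2-fold or less. The region at chr1:167340114-167340563, whose nearest coding gene was Aldh9a1, an aldehyde dehydrogenase gene, had folds of 3.28 and 4.36 in control and 7.10 and 7.67 in esculetin libraries (log2 difference 0.94, SE 0.21, adjusted p = 0.027 by limma). Its local background was 2.57 and 2.68 times the genome-wide level in control and 1.92 and 1.85 times in esculetin libraries. Its summit coverage was 8.76 and 12.5 times that level in control and 14.9 and 15.9 times in esculetin libraries. The strongest riser, at chr4:122122784-122123082, had 7.59 and 9.45 in control and 15.6 and 16.7 in esculetin libraries (0.90, adjusted p = 0.036). The region inside Col6a6, a collagen VI chain gene, at chr9:105819268-105819634 had 4.40 and 3.75 in control and 8.55 and 7.06 in esculetin libraries (0.91, adjusted p = 0.048). Another, at chr5:123057760-123058418, nearest to Morn3, had 4.09 and 4.69 in control and 8.30 and 7.96 in esculetin libraries.

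The largest fall was inside Chd9, a chromatin remodeller gene of the CHD family, at chr8:90876213-90876731. Its folds were 6.80 and 7.70 in control and 3.13 and 3.41 in esculetin libraries (log2 difference -1.17, SE 0.21, adjusted p = 0.0077 by limma). The region in Smco2 at chr6:146855056-146855554 had 8.52 and 8.36 in control and 3.52 and 4.90 in esculetin libraries (-1.05, adjusted p = 0.013). Regions at chr15:9219779-9220836, nearest to Ugt3a1, and at chr11:104000915-104001475, nearest to Arf2, also fell, with differences of -0.96 and -0.87. The next, at chr16:8810714-8811232 near 1810013L24Rik, had 6.16 and 7.21 in control and 3.75 and 3.98 in esculetin libraries and missed the threshold (adjusted p = 0.055). In each of these regions the groups did not overlap, as the choice by p makes likely.

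**Figure D4:**
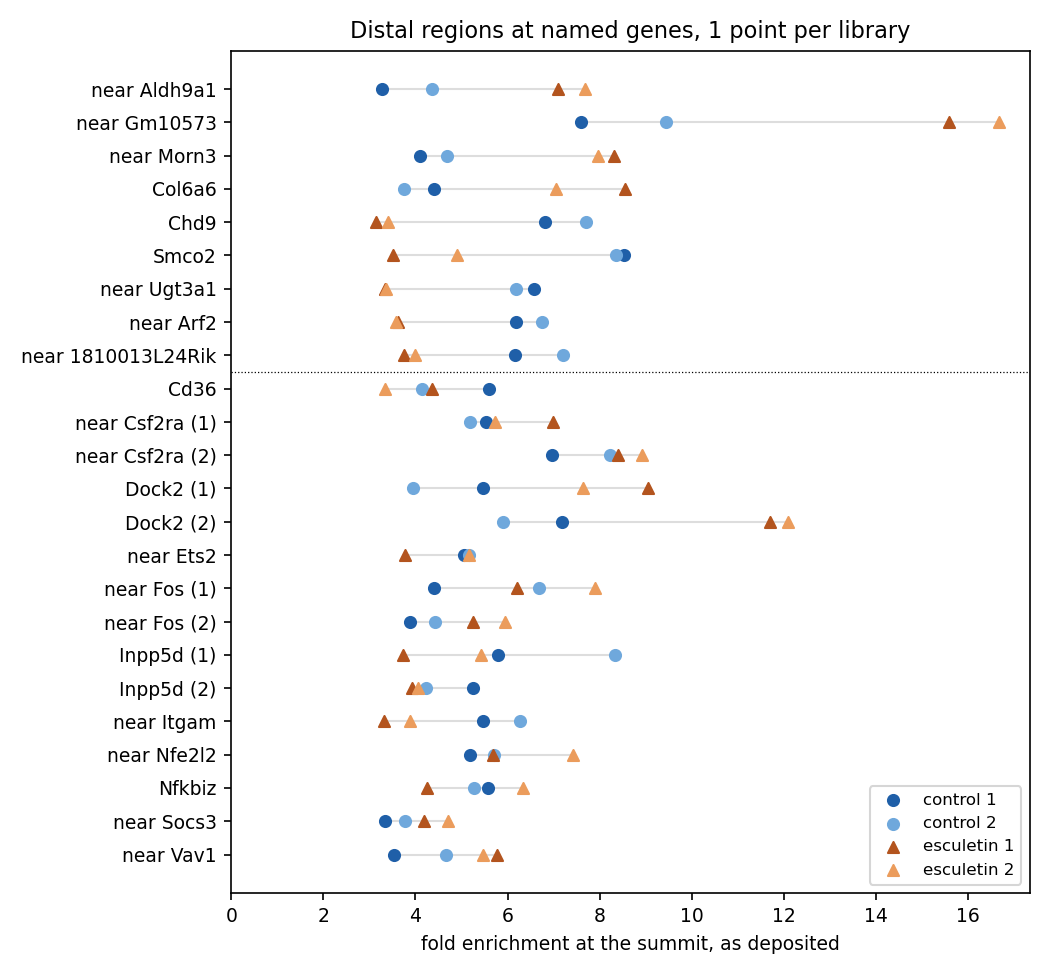
Fold enrichment as deposited in each of the 4 libraries, with 1 point per library, at rising and falling members of smallest p that are described in the text (above the dotted line) and at all members inside or near genes of the macrophage lists (below it). "Near" means that the member lay outside the gene; in the lower part the groups separate most at both Dock2 regions and at the region near Itgam.

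Members at macrophage genes were counted by list, with a gene counted when it was the host or the nearest gene within 50 kb. Among all protein-coding genes 473 of 21631 (2.19%) did. The counts were 0 of 21 macrophage lineage transcription factors, 0 of 25 macrophage surface and identity genes, 1 of 31 genes of lipid uptake, efflux and storage (3.23%), 3 of 26 genes of phagocytosis and cytoskeleton signalling (11.5%), 3 of 30 genes of inflammatory signalling (10.0%) and 0 of 24 genes of other cell types. Distal regions open in at least 1 library numbered 78, 48, 54, 80, 66 and 19 beside the 6 lists, in the same order. Of these, 2, 3, 1, 5, 4 and 0 were members, with regions at a nearest coding start included. Beside all protein-coding genes 595 of 16360 (3.64%) were members. Counting each region for its nearest coding start instead, which was added after the values were seen, gave 2 lineage factors (Nfe2l2 and Ets2) and 2 surface genes (Itgam and Csf2ra), with 586 (2.71%) of all coding genes.

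The labelled cell type was checked in the same lists. Peaks at the promoters of the surface and identity genes were found for 11 and 13 of the 25 genes in the control libraries but for 0 in esculetin replicate 1 and 5 in esculetin replicate 2, and promoters of the genes of other cell types had 0 in every library. Over all protein-coding genes the shares were 40.6%, 42.0%, 30.0% and 37.8%. The phagocytosis list had 16, 19, 3 and 14 of its 26 genes, and the lineage factors had 13, 14, 12 and 15 of 21. The lipid list had 19, 21, 13 and 17 of 31 genes, and the inflammatory list 19, 24, 15 and 17 of 30. Csf1r, Itgam and Adgre1 were among the surface genes with no promoter peak in any library. Promoters open in all 4 libraries were seen for 9 of the 21 lineage factors and 0 of the 25 surface genes, against 26.6% of all protein-coding genes.

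In the phagocytosis list, both regions in Dock2, which encodes the Rac activator of leukocyte migration, were higher with esculetin. The one at chr11:34681658-34682410 had folds of 7.19 and 5.91 in control and 11.7 and 12.1 in esculetin libraries (log2 difference 0.84, adjusted p = 0.055 by limma). The one at chr11:34544673-34545075 had 5.46 and 3.94 in control and 9.05 and 7.65 in esculetin libraries (0.82, adjusted p = 0.084). The groups did not overlap in either, and neither passed the threshold. Inpp5d, which encodes the lipid phosphatase SHIP1, had 2 regions with lower values. That at chr1:87626378-87626745 had 5.80 and 8.33 in control and 3.72 and 5.42 in esculetin libraries (-0.66, adjusted p = 0.12), and the other had 5.25 and 4.23 in control and 3.93 and 4.06 in esculetin libraries, values that overlapped once centred. A region 3511 bp from the start of Vav1, a signalling gene of blood cells, had 3.54 and 4.67 in control and 5.77 and 5.46 in esculetin libraries (adjusted p = 0.34).

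Cd36, the scavenger receptor that takes up oxidized lipoprotein, was the single lipid gene with a member. Its promoter had no peak in any library. The region lay inside the gene at chr5:17879877-17880331, 8855 bp from the start, with folds of 5.59 and 4.13 in control and 4.36 and 3.33 in esculetin libraries. The groups overlapped, and the log2 difference was -0.36 (SE 0.23, adjusted p = 0.50 by limma).

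In the inflammatory list, the region whose nearest gene was Fos, a subunit of AP-1, at chr12:85485861-85486337 had 3.88 and 4.42 in control and 5.25 and 5.95 in esculetin libraries. That near Socs3, which restrains cytokine signalling, had 3.34 and 3.77 in control and 4.18 and 4.70 in esculetin libraries, with the groups apart but adjusted p = 0.55. The region in Nfkbiz, which encodes the nuclear regulator IκBζ, had 5.58 and 5.28 in control and 4.25 and 6.34 in esculetin libraries, with overlap.

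By nearest coding start, the region 11716 bp from Itgam, which encodes the CD11b integrin chain, at chr7:128050717-128051132 had 5.46 and 6.27 in control and 3.31 and 3.87 in esculetin libraries (log2 difference -0.74, adjusted p = 0.086 by limma). The region nearest Nfe2l2, which encodes the oxidative stress regulator NRF2, lay 43741 bp from its start and had 5.19 and 5.71 in control and 5.68 and 7.42 in esculetin libraries, which overlapped as deposited and separated, with higher esculetin values, once centred. A second region at Fos, inside the gene model Gm38543 at chr12:85454993-85455711 and 18538 bp from the start of Fos, had 4.40 and 6.69 in control and 6.21 and 7.89 in esculetin libraries, which overlapped as deposited and separated once centred. That nearest Ets2 had 5.05 and 5.17 in control and 3.77 and 5.17 in esculetin libraries, and its esculetin values were the lower ones once centred. Both regions nearest Csf2ra, at the end of chromosome 19, had a background of at least 2 times the genome-wide level in all libraries. None of the 15 regions at list genes passed the limma threshold.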

How the data were processed

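ATAC-seq libraries of the control and esculetin groups (2 each, from the treatment label) were analysed. Reads were processed by the authors with Trim Galore, Bowtie2 (against mm10), Sambamba, which took out PCR duplicates and reads with several mapping positions, and MACS2, run on each library; options and any shift of read ends are not given in the sources used here. Removal of multiply mapped reads lowers coverage in repeats. The deposited lists hold a score, the fold (a linear ratio of summit coverage to local background) and the authors' −log10 p and −log10 q. They hold no counts, so the DESeq2 test named in the study was not run. Summit coverage and background were solved from fold and p in 100.0% of peaks, and the procedure was tested on simulated peaks.

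Gene starts came from the RefSeq annotation of GRCm38.p6 for 49554 genes, with 67192 start sites. Strand was known for 90.7% of genes, and both ends counted as starts for the rest. "Nearest gene" is position only. log2 fold, from the highest peak of each library in a region and with no pseudocount, was centred on the library's median over shared regions and tested with limma 3.58.1 in R 4.3.3, also on simulated data. Single values per library were compared by exact permutation tests. Peak names within the esculetin lists carry other replicate numbers than the labels, and the labels were used.

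Members, gene lists and tests were chosen with earlier results of these data known. Named were the 6 strongest members inside genes and the 6 strongest intergenic ones by lowest rank in the 4 libraries, all with a fold of at least 20 throughout, the 5 rising and 5 falling with the smallest p (1 of them is not reported here), those nearest each limit, and those inside list genes or within 50 kb as nearest gene. High local background was defined after the data were seen. Alternatives covered distance limits, peak thresholds, scaling, pseudocount, overlap, left-out libraries and a replicate block.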

Additional observations from a re-analysis of the deposited data

How the results depend on the processing

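The number of members moved from 788 to 490 with a limit of 10 kb and to 345 with equal numbers of the strongest peaks from each list. With 1 library left out it lay between 842 and 1509, the latter without esculetin replicate 1. The share inside genes, 49.6%, was 54.4% with a limit of 1 kb, 43.3% with 10 kb and 41.4% for protein-coding genes only, and 49.5% to 53.3% with 1 library left out, highest without esculetin replicate 1. The lower ratio of distal to promoter fold (-0.014 for summit coverage over the genome-wide background, to -0.148 without control replicate 2, on the log2 scale) and the narrower peaks (-18.5 bp without esculetin replicate 1, to -61 bp without esculetin replicate 2) with esculetin kept their direction under every alternative run, although 2 against 2 libraries cannot give an exact p under 0.33.

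The 9 limma calls among the members became 0 with quantile normalization, 0 without scaling (141 and 86 at an unadjusted p under 0.05), 74 for summit coverage over the genome-wide background (8 of the 9 kept), 14 for the mean of all peaks in a region, 14 with a pseudocount of 1 and 1 without the regions of high local background, an alternative added after seeing the data. They were 0 to 0 with any 1 library left out, where the lone sample is assumed to vary like the other group. With peaks of −log10 q of at least 5, 13 of 588 members were called, 12 higher and 1 lower, and 3 of the 9 were kept. That setting called 54 of 5324 shared regions. Over all 6174 shared regions the main fit gave 24 calls, summit coverage 285, the mean of all peaks 51 and the pseudocount 33. The cause of these shifts was not tested. The replicate block gave 27 calls among the members (15 higher, 12 lower) and 91 among all 6174 shared regions. The replicate numbers do not pair the samples, since the deviations of equal-numbered libraries had a correlation of 0.0081. The 10 regions of smallest p, chosen for that p, gave 80 values under the alternatives run for them. All 80 kept their direction, which the choice by p makes likely, and 11 passed the threshold; other named regions were not run. A region missed in 1 list is no member, and the part of depth in folds and membership was not tested.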
